A study of Mus musculus with 9 samples.

Results

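The FOS and JUN genes and a few other immediate early genes were followed through mouse MC38 cells, a colon carcinoma line, under copper-based treatment. The set was fixed by gene symbol and held 10 genes, namely Fos, Fosb, Fosl1, Fosl2, Jun, Junb, Jund, Egr1, Ier2 and Ier3. All 10 were in the deposited table of 16509 genes, and all 10 were among the 11949 genes that passed the filter on low counts. Messenger RNA was sequenced in 9 libraries, 3 from control cells (Ctrl), 3 from cells treated with Cu-Cys (copper with cystine) and 3 from cells treated with Cadict, which per the study's methods is a particle of copper and cystine that also carries glucose oxidase and a targeting peptide. Control cells received PBS according to the study and DMSO according to the sample labels, and the sources used here give no dose or time for these libraries. All 3 groups share one cell line. The study describes its cell experiments as independently repeated and its n as biological replicates, while the labels only number these libraries, and the p-values measure the spread between them. The columns of the Cadict libraries carry the abbreviation CCGE in the table, and their match to Cadict is an inference from its components.

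AP-1 is a transcription factor made of paired proteins that grip DNA through a basic region and hold each other through a leucine zipper. JUN proteins (Jun, Junb, Jund) can pair with one another or with FOS proteins (Fos, Fosb, Fosl1, Fosl2), whereas FOS proteins usually need a JUN partner. Jun activates transcription more strongly than Junb or Jund. Immediate early genes are those that cells switch on within minutes of a signal without making new protein first, usually through MAP kinases acting on factors already bound at their promoters. Their mRNAs are short-lived. Fos, Fosb, Jun, Junb, Egr1 (a zinc finger factor), Ier2 and Ier3 belong to this class, Fosl1 and Fosl2 usually follow later, and Jund is expressed at a steady level in most cells.

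Promoter windows of 300 bases, 250 before and 50 after the annotated start, were available from RefSeq (GRCm38.p6) for 7 of the 10 genes (Fos, Fosb, Fosl2, Jun, Junb, Jund and Ier3). The windows of Fosb, Fos and Junb are shown because these genes of the 2 families moved furthest among those with a window. They are chr7:19309996-19310295 (minus strand), chr12:85473640-85473939 (plus strand) and chr8:84978699-84978998 (minus strand), each written 5′ to 3′ along the gene. Capitals mark TGACG (the core of the cAMP response element), TATAAA (the motif that TBP binds) and GCGNGGGCG (the site of EGR proteins).
Fosb: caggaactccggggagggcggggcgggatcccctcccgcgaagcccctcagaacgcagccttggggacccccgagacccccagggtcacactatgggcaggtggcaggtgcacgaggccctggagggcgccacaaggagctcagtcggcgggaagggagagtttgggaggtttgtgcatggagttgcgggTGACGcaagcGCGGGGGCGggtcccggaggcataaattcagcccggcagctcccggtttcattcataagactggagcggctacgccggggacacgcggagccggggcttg
Fos: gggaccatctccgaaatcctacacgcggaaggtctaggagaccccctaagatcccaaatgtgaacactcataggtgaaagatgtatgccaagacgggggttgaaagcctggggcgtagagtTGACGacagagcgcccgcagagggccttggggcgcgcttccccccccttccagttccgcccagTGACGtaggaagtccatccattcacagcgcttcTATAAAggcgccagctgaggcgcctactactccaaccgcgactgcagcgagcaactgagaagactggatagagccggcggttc
Junb: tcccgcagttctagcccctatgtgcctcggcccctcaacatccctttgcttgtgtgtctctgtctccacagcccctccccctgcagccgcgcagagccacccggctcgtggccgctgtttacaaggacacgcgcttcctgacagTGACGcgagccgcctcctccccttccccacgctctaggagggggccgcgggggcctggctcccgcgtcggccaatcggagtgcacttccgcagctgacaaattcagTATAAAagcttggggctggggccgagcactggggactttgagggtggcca
In the Fosb window TGACG lies at bases 191 to 195 and the EGR site at bases 201 to 209. The Fos window holds TGACG at bases 122 to 126 and again at bases 185 to 189, with TATAAA at bases 218 to 223. The Junb window holds TGACG at bases 145 to 149, and its TATAAA begins at base 251, the RefSeq start itself. Both strands of all 7 windows were also searched for TGANTCA (the AP-1 site itself) and TGACGTCA (the full cAMP response element), with 0 matches each. The CArG box, which serum response factor binds, had 0 matches too. Only exact matches within these 300 bases were counted, so sites further from the start or with other letters would be missed. Fosl1, Egr1 and Ier2 had no window to search. Over all 32851 windows in the table, TGACG (which the full element also contains) occurred in 20.8%, TATAAA in 13.6%, the EGR site in 5.55%, TGANTCA in 7.81%, TGACGTCA in 1.79% and the CArG box in 1.63%. Among the first windows of 9547 tested genes these shares were 32.4%, 6.63%, 10.7%, 4.92%, 3.31% and 1.28% in the same order. The EGR site was found in 2 of the 7 windows (Fosl2 and Fosb), TGACG in 3 (Fosb, Junb and Fos), TATAAA in 2 (Junb and Fos) and CCAAT in 3 (Jun, Junb and Ier3), the last against 37.4% of all windows and 39.7% of those of tested genes. These are matches of letters and not evidence of binding.

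Total counts per library ran from 17905771 to 18293056. The TMM factors, which scale libraries so that the typical gene does not change, were 1.26 to 1.27 in Ctrl, 1.21 in Cu-Cys and 0.640 to 0.665 in Cadict, where the 100 most abundant genes took 29.8% to 31.1% of counts against 17.2% to 17.4% in Ctrl. The choice of scaling therefore matters for Cadict. Against TMM, the median log2 fold change over all tested genes shifted by -0.95 (Cadict over Ctrl) and -0.88 (Cadict over Cu-Cys) with library totals, by -1.0 and -0.86 in the deposited TPM, and by 0.12 and 0.09 with DESeq2's size factors. With TMM 2472 genes were called higher and 3235 lower in Cadict against Ctrl, whereas library totals gave 828 and 6148. Fold changes below are thus set against the typical gene. The median log2 change over all tested genes was -0.13 for Cadict over Ctrl, 0.0067 for Cu-Cys over Ctrl and -0.10 for Cadict over Cu-Cys, and a change in the total mRNA per cell, or in the number of cells, would not be seen. Cadict replicate 2 stood apart, with a chi-square per gene of 14.7 and 23.1 against its fellow replicates, where all other pairs within a group gave 1.88 to 4.53. The labelled origin was checked against markers. Of 8 epithelial genes, Epcam, Krt20 and Cdx2 were at 0 or not listed in Ctrl and Cu-Cys libraries, and the list summed to 4.22 to 6.24 TPM in Ctrl, 3.50 to 3.95 in Cu-Cys and 11.5 to 13.2 in Cadict. The 4 fibroblast genes (Col1a1, Col1a2, Dcn and Pdgfra) summed to 261 to 283 TPM in Ctrl, 132 to 138 in Cu-Cys and 21.3 to 26.7 in Cadict. Most of this sum was Col1a2 (239 to 260 TPM in Ctrl). It moved with the groups, as did Col1a1 and Pdgfra. Dcn overlapped between groups, at 0.59 to 1 TPM in Ctrl, 0.62 to 0.76 in Cu-Cys and 0.48 to 0.72 in Cadict. The part of these genes in the results was not tested. The 6 leukocyte genes summed to at most 1.37 TPM and the 3 endothelial genes to at most 1.20 TPM in any library.

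With Cadict 9 of the 10 genes rose at least 2-fold over Ctrl, and Jund was the exception. Fosb, Egr1 and Fos changed most, by 30.1-fold, 17.5-fold and 13.6-fold. Ier3 and Fosl1 rose 6.95-fold and 6.48-fold, Junb 4.50-fold, Fosl2 3.97-fold and Ier2 2.76-fold, while Jun rose 2.03-fold, a rise that vanished with library totals and turned to a lower level in the deposited TPM. A call required a change of at least 2-fold with an adjusted p no higher than 0.001, from edgeR's quasi-likelihood test (p-values adjusted by Benjamini-Hochberg over all 11949 genes). By this rule 9 of 10 were higher and 0 lower, where the background was 20.7% of all tested genes higher and 27.1% lower. With an adjusted p up to 0.05 and no limit on the fold, 9 were higher and Jund was lower, against 40.6% and 47.1% of all genes. The libraries of the 2 groups did not overlap for any of the 10 genes, nor for 87.5% of all tested genes. Library totals left 7 called higher, without Jun and Ier2, and called Jund lower. Over all tested genes that scaling called 828 higher and 6148 lower. The deposited TPM left Fos, Fosb, Fosl1, Egr1 and Ier3 higher and called Jund lower, against 389 higher and 6475 lower over all genes. The median log2 fold change was 2.43 over the 10 genes and -0.13 over all genes.

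Without the other components of Cadict, changes were smaller in most genes. No gene of the 10 was called with Cu-Cys (0 higher, 0 lower, edgeR), where 0.167% of all genes were called higher and 1.47% lower. Of the 10, 6 had an unadjusted p under 0.05, while 5381 of all 11949 genes passed 0.05 even after adjustment. At an adjusted p up to 0.05, Fosl1 and Ier3 rose while Jund, Junb, Ier2 and Jun fell, which is 2 higher and 4 lower, against 22.6% and 22.4% of all genes. The rise of Fosl1, 1.88-fold, stood 109th from the top of the 11949 genes. Jund stood 623rd from the bottom. Egr1, Fosl2, Fosb and Fos did not pass. The libraries of 8 of the 10 genes did not overlap, compared with 61.2% of all tested genes. Over the 10 genes the median log2 fold change was -0.15, against 0.0067 over all genes. The test of Cadict against Cu-Cys compares both copper treatments directly. There 9 of the 10 genes were called higher and 0 lower, against 18.6% and 23.6% of all genes, with a median log2 fold change of 2.12. At an adjusted p up to 0.05, 9 rose and 0 fell, against 40.3% and 45.6% of all genes, and the libraries of 9 of the 10 genes did not overlap (85.0% of all genes). The 2 comparisons with Ctrl share their control libraries.

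**Figure D1:**
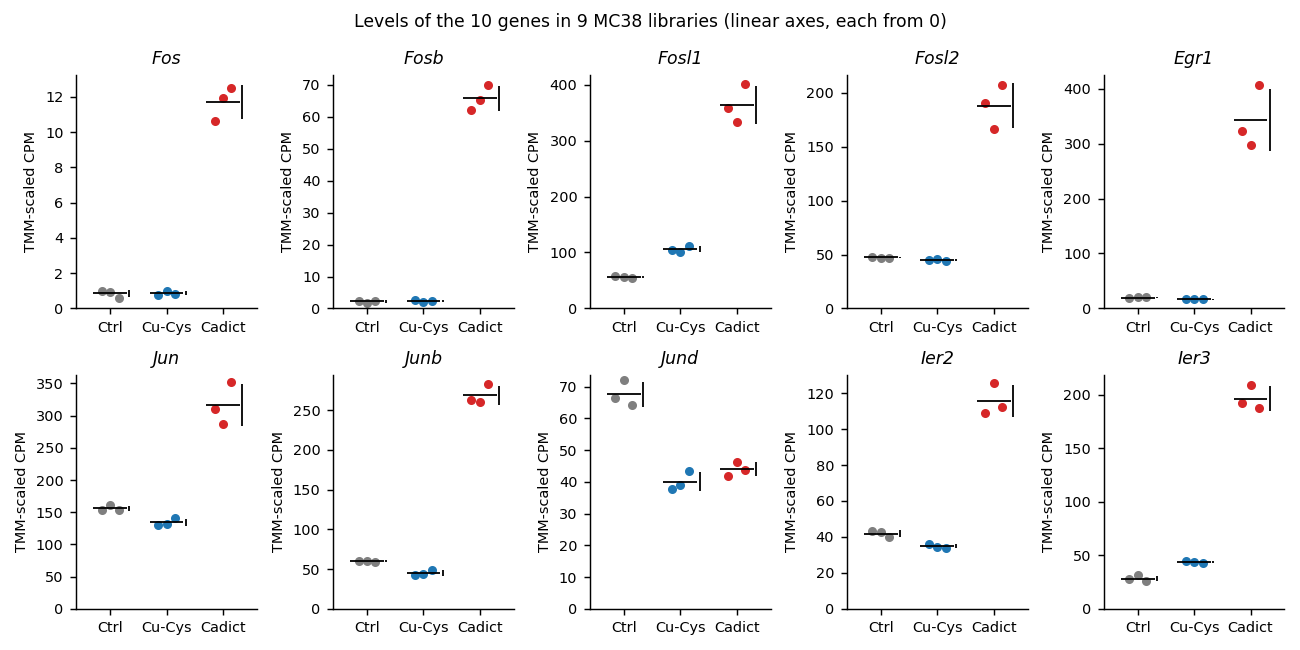
Levels of the 10 genes as TMM-scaled CPM (vertical axes, linear and starting at 0) in 3 Ctrl (grey), 3 Cu-Cys (blue) and 3 Cadict (red) libraries. Each point is 1 library, horizontal bars are group means and vertical bars span 1 SD either side. The Cadict libraries lie above all others for 9 genes, and for Jund they lie below Ctrl and overlap the Cu-Cys libraries.

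Fosb and Fos, the classical inducible members of the FOS family, started from very low levels. Fosb stood at 2.25, 1.82 and 2.49 TMM-scaled CPM (counts relative to a common library size) in Ctrl replicates 1 to 3, at 2.54, 2.01 and 2.28 in Cu-Cys and at 62.2, 65.4 and 69.9 in Cadict. Its Ctrl and Cu-Cys libraries overlapped, and every Cadict library was far above both. The log2 fold change was 4.91 with Cadict over Ctrl (SE, the standard error, 0.10, adjusted p = 1.2e-15) and 4.85 with Cadict over Cu-Cys (SE 0.10, adjusted p = 2.2e-15), and it was 0.06 with Cu-Cys over Ctrl (SE 0.16, adjusted p = 0.797). Among all tested genes Fosb had the 99th largest rise with Cadict. Fos (Entrez number 14281), whose protein gave AP-1 its best known form, had 0.995, 0.952 and 0.610 CPM in Ctrl, 0.784, 1.01 and 0.821 in Cu-Cys and 10.6, 11.9 and 12.5 in Cadict. It too rose with Cadict, with overlapping Ctrl and Cu-Cys libraries. These levels rest on few reads, 14 to 23 counts per Ctrl library, 17 to 22 per Cu-Cys library and 125 to 149 per Cadict library, which gave Fos the widest standard errors of the set. The log2 fold change of Fos was 3.77 with Cadict over Ctrl (SE 0.17, adjusted p = 5.5e-12), 3.74 with Cadict over Cu-Cys (SE 0.17, adjusted p = 8.6e-12) and 0.03 with Cu-Cys over Ctrl (SE 0.26, adjusted p = 0.943). For both genes the small value with Cu-Cys turned negative under library totals and in the deposited TPM.

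Fosl1 and Fosl2 encode FRA1 and FRA2, FOS proteins that lack the strong activation domain of Fos. Fosl1 was the most abundant of the family by TPM, and it rose with both treatments. It had 57.5, 56.9 and 54.1 CPM in Ctrl, 105, 101 and 111 in Cu-Cys and 357, 333 and 401 in Cadict, so that the 3 groups formed separate steps. The log2 fold change was 0.91 with Cu-Cys over Ctrl (SE 0.07, adjusted p = 1.4e-07), 2.70 with Cadict over Ctrl (SE 0.07, adjusted p = 9.3e-15) and 1.78 with Cadict over Cu-Cys (SE 0.07, adjusted p = 8.1e-13). The last of these fell short of 2-fold under library totals (log2 fold change 0.90) and in the deposited TPM (0.61), where it stayed positive. Fosl1 was also the one gene of the 10 whose deposited counts were mostly fractional, with a whole number (within 0.005) in 1 of 9 libraries and in 9 of 9 for each of the others. In GENCODE M21 its exons overlap those of Ccdc85b on the other strand, which had 34.7 CPM ± 1.62 in Ctrl, 37.2 ± 3.84 in Cu-Cys and 30.9 ± 3.25 in Cadict (SD, n = 3). Fosl2 stood at 47.7, 47.2 and 47.3 CPM in Ctrl, 44.7, 46.2 and 43.7 in Cu-Cys and 191, 166 and 207 in Cadict. Its Cu-Cys libraries lay just under those of Ctrl, a difference that did not pass the test (log2 fold change -0.08, standard error 0.07, adjusted p = 0.387). With Cadict it rose by 1.99 over Ctrl (SE 0.07, adjusted p = 3.5e-13) and by 2.07 over Cu-Cys (SE 0.07, adjusted p = 3.2e-13) on the log2 scale.

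The 3 JUN genes parted ways. Junb had 60.5, 60.0 and 58.3 CPM in Ctrl, 43.0, 43.6 and 49.3 in Cu-Cys and 263, 260 and 282 in Cadict, so it was lowest with Cu-Cys and highest with Cadict without any overlap. It fell by 0.40 on the log2 scale with Cu-Cys (SE 0.06, adjusted p = 1.2e-04) and rose by 2.17 with Cadict (SE 0.06, adjusted p = 2.2e-14), and Cadict exceeded Cu-Cys by 2.57 (SE 0.06, adjusted p = 6.9e-15). Jun, whose protein is the strongest activator of the family, showed the same order with a narrower span, at 154, 161 and 154 CPM in Ctrl, 130, 131 and 141 in Cu-Cys and 311, 287 and 352 in Cadict. With Cadict its log2 fold change over Ctrl was 1.02 (SE 0.07, adjusted p = 5.5e-10), barely past 2-fold. It was 0.93 without Cadict replicate 3, 0.94 without the filter on low counts and 0.96 with at least 10 counts in every library, each short of 2-fold. Library totals brought it to 0.07 (adjusted p = 0.385), and the deposited TPM turned it to -0.29 (adjusted p = 0.0233, limma). Over Cu-Cys, Jun rose by 1.24 (SE 0.07, adjusted p = 6.6e-11). Here too Jun depended on the scaling, with 0.36 under library totals, short of 2-fold, and 0.07 in the deposited TPM (adjusted p = 0.534, limma). Its fall with Cu-Cys was small, -0.22 (SE 0.07, adjusted p = 0.0132), and it missed 0.05 without Ctrl replicate 2 (adjusted p = 0.0597), without Cu-Cys replicate 1 (0.0511) or without Cu-Cys replicate 2 (0.0548).

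Jund, the steady member of the JUN family, moved the other way. It had 66.6, 72.0 and 64.1 CPM in Ctrl, 37.7, 39.0 and 43.6 in Cu-Cys and 42.0, 46.4 and 43.7 in Cadict. Every treated library was below every Ctrl library, and the libraries of both treatments overlapped. Against Ctrl the log2 fold change was -0.75 with Cu-Cys (SE 0.07, adjusted p = 8.0e-07) and -0.62 with Cadict (SE 0.07, adjusted p = 5.2e-07). Between the treatments it was 0.13 (SE 0.07, adjusted p = 0.0942), and here the scaling set the direction, since DESeq2's size factors gave 0.23 (adjusted p = 0.00785, and TMM without Cu-Cys replicate 3 gave 0.19, adjusted p = 0.0315), library totals -0.75 and the deposited TPM -0.98. Against Ctrl, library totals and the deposited TPM made the fall with Cadict larger, at -1.57 and -1.86. Jun, Junb, Jund and Ier2 have a single exon in GENCODE M21. Among 11535 tested genes matched to that annotation by symbol, the 180 with a single exon had a median log2 fold change of -1.17 in Cadict against Ctrl and the others had -0.12, so all 4 of these genes lay above the median of their class. Exons of genes on the opposite strand overlap those of Jun (Junos), Jund (Gm11175) and Junb (Prdx2), and the sources used here do not state that counting used strand. Junos and Gm11175 were not in the table. Prdx2 had 184 CPM ± 5.19 in Ctrl, 194 ± 3.01 in Cu-Cys and 364 ± 70.5 in Cadict (SD, n = 3).

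Egr1 and the IER genes complete the set. Egr1 had 18.4, 20.2 and 20.1 CPM in Ctrl, 17.5, 16.4 and 16.6 in Cu-Cys and 323, 298 and 406 in Cadict. It thus went from one of the lower levels to one of the highest. The log2 fold change was 4.13 with Cadict over Ctrl (SE 0.10, adjusted p = 6.2e-15) and 4.35 with Cadict over Cu-Cys (SE 0.10, adjusted p = 7.0e-15). With Cu-Cys the value was -0.22 (SE 0.11, adjusted p = 0.128), which passed 0.05 when Cadict replicate 2 (adjusted p = 0.0439) or Cadict replicate 3 (adjusted p = 0.0160) was left out of the shared fit, although all Cu-Cys libraries lay below the Ctrl libraries in any case. Ier3, which encodes a stress-induced protein that acts on cell survival and ERK signalling, stood at 27.5, 31.1 and 26.1 CPM in Ctrl, 44.4, 43.9 and 42.8 in Cu-Cys and 192, 210 and 187 in Cadict. Like Fosl1 it rose in 2 separate steps, by 0.63 with Cu-Cys over Ctrl (SE 0.07, adjusted p = 6.1e-06), by 2.80 with Cadict over Ctrl (SE 0.07, adjusted p = 5.9e-15) and by 2.17 with Cadict over Cu-Cys (SE 0.07, adjusted p = 9.3e-14) on the log2 scale. Ier2, a nuclear immediate early protein, had 43.2, 42.6 and 39.7 CPM in Ctrl, 36.1, 34.1 and 34.1 in Cu-Cys and 109, 126 and 112 in Cadict. Its Cu-Cys libraries were below and its Cadict libraries above all Ctrl libraries. The log2 fold changes were -0.27 with Cu-Cys (SE 0.07, adjusted p = 0.00415), 1.46 with Cadict (SE 0.06, adjusted p = 4.4e-12) and 1.73 between the treatments (SE 0.07, adjusted p = 1.0e-12). Under library totals Ier2 rose by 0.51 with Cadict over Ctrl, short of 2-fold, and in the deposited TPM by 0.15 (adjusted p = 0.0510, limma), short of the test.

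**Figure D2:**
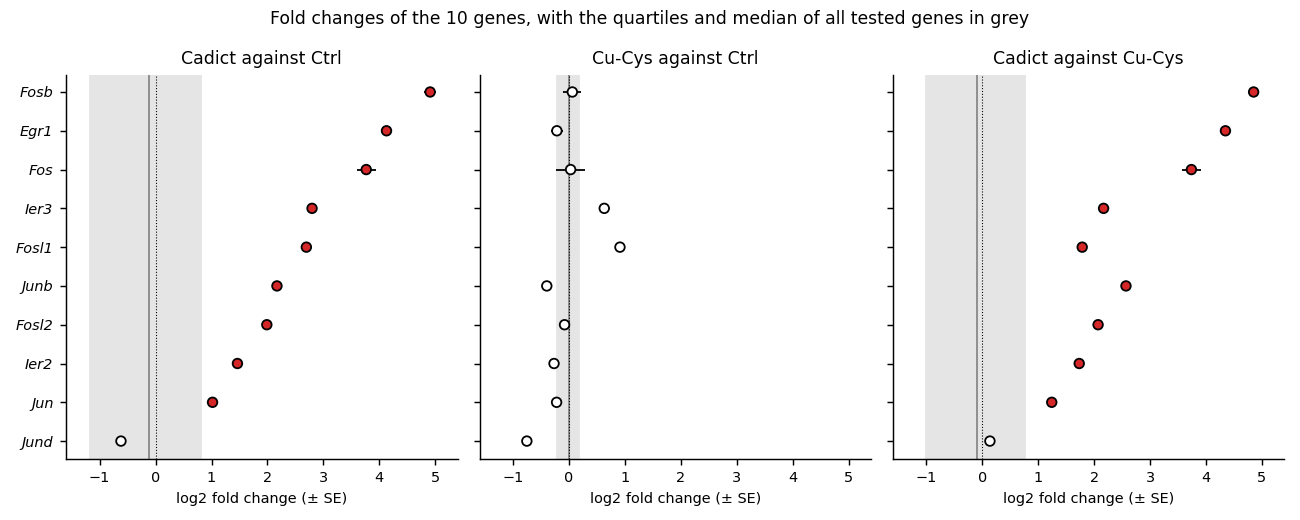
Log2 fold changes of the 10 genes (horizontal axes) in the 3 comparisons, with bars of 1 standard error, mostly hidden by the points. Filled points were called (at least 2-fold, adjusted p up to 0.001), the grey band spans the quartiles of all tested genes and the grey line is their median. With Cadict 9 genes lie right of the band and Jund within it, whereas with Cu-Cys the values run from -0.75 (Jund) to 0.91 (Fosl1). Under other scalings Jun against Ctrl, Jund between the treatments and Fos and Fosb with Cu-Cys change sign.

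**Figure D3:**
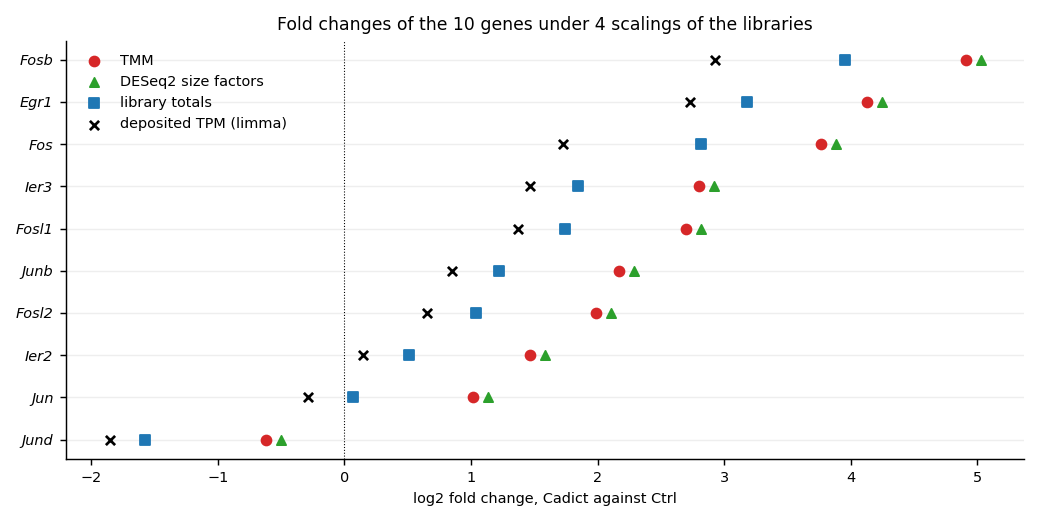
Log2 fold change of each of the 10 genes in Cadict against Ctrl (horizontal axis) with libraries scaled by TMM, DESeq2's size factors or library totals and in the deposited TPM plus a pseudocount of 1. The order of the genes is the same in all 4 while the whole set shifts, so that Jun lies at 1.02, 1.14, 0.07 and -0.29, and Jund is below 0 in each.

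TPM, which takes gene length into account, was used to rank the genes within a group. In Ctrl cells Jun led with 116.7 TPM, followed by Fosl1 (87.2), Junb (84.3), Ier3 (79.4) and Ier2 (75.0), whose neighbours in this order overlapped between libraries. Jund came next with 56.6 TPM, then Fosl2 with 17.6 and Egr1 with 15.2, each apart from its neighbours. Fosb (1.36) and Fos (1.02) were last and overlapped. In Cu-Cys cells Fosl1 (148 TPM) and Ier3 (111) passed Jun (90.6), and each of these steps was free of overlap. In Cadict cells Fosl1 (229 TPM) and Ier3 (221) led and overlapped each other. Junb (154), Egr1 (109), Jun (96.5) and Ier2 (83.1) followed, each overlapping its neighbour. Fosl2 (28.6) stood apart, Fosb (17.0) and Jund (14.9) overlapped, and Fos remained the lowest at 5.68 TPM. The 10 genes together took 0.0607% ± 0.00174 of all counts in Ctrl, 0.0565% ± 0.00180 in Cu-Cys and 0.125% ± 0.0116 in Cadict (SD, n = 3).

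The share of each gene within its family needs no scaling between libraries. In TPM, Jun held the largest share of the JUN family in Ctrl and Cu-Cys and Junb in Cadict. In expected counts, without a correction for length, Jun stayed first in Cadict, with 50.3% ± 1.79 against 42.7% ± 1.09 for Junb. Jun made up 45.3% ± 0.407 of the summed TPM of the JUN family in Ctrl, 50.7% ± 0.781 in Cu-Cys and 36.2% ± 1.58 in Cadict. Junb made up 32.7% ± 0.692, 32.3% ± 0.489 and 58.1% ± 1.07, and Jund 22.0% ± 0.700, 17.0% ± 0.325 and 5.68% ± 0.534 (SD, n = 3 each). Within the FOS family Fosl1 dominated in every library, with 81.4% ± 0.369 in Ctrl, 89.6% ± 0.699 in Cu-Cys and 81.7% ± 0.295 in Cadict. Fosl2 held 16.4% ± 0.383, 9.07% ± 0.627 and 10.2% ± 0.323. Fosb went from 1.27% ± 0.225 in Ctrl and 0.783% ± 0.0819 in Cu-Cys to 6.10% ± 0.391 in Cadict, and Fos from 0.949% ± 0.215 and 0.573% ± 0.0973 to 2.04% ± 0.194. Of 21 tests of these shares, 19 separated the libraries fully, with the smallest p that 3 against 3 allows (p = 0.1, two-sided exact permutation test, 0.111 after Benjamini-Hochberg adjustment). The exceptions were Fosl1 in Cadict against Ctrl (p = 0.3, exact permutation test) and Junb in Cu-Cys against Ctrl (p = 0.7, exact permutation test).
FOS transcripts were also compared with JUN transcripts as a whole. The ratio of summed FOS to summed JUN TPM was 0.408 to 0.427 in Ctrl (mean 0.416 ± 0.00991), 0.901 to 0.962 in Cu-Cys (0.926 ± 0.0321) and 1.02 to 1.08 in Cadict (1.06 ± 0.0301; SD, n = 3). No libraries of different groups overlapped, and each of the 3 comparisons gave the smallest p possible (p = 0.1, exact permutation test, 0.113 after adjustment over 9 tests of the sums and the ratio). In expected counts the ratio was 0.376, 0.701 and 1.00 in Ctrl, Cu-Cys and Cadict. The sums themselves depend on the scaling. The FOS sum was 107 TPM in Ctrl, 166 in Cu-Cys and 281 in Cadict, and in TMM-scaled CPM, a scale added after the data were seen, it was 107, 154 and 629. The JUN sum was 258, 179 and 265 TPM, and 284, 219 and 629 CPM. In TPM the JUN sum of Cadict did not differ from Ctrl beyond the spread (p = 0.7, exact permutation test), whereas in CPM it was 2.22-fold higher without overlap (p = 0.1, the smallest possible, exact permutation test). The other 5 comparisons of the sums had the same direction on both scales, each with p = 0.1 (exact permutation test).

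**Figure D4:**
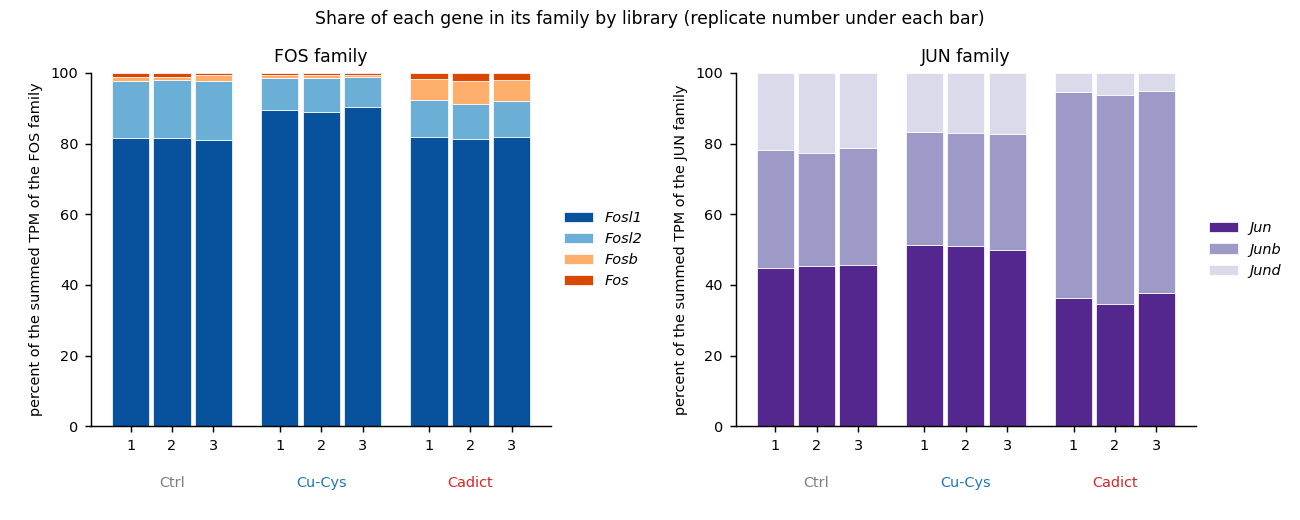
Share of each gene in the summed TPM of the FOS family (left) and of the JUN family (right), in percent, for each of the 9 libraries, with the replicate number under its bar. Fosl1 fills 80.9% to 90.3% of every FOS bar, and Junb widens from 32.0% to 33.3% in Ctrl to 57.0% to 59.1% in Cadict, while Jund narrows.

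Some other leucine zipper proteins pair with FOS or JUN proteins. The list made for them, called partner genes here, also holds related factors for which such pairing is not implied. Of 15 tested (of 18 listed), 10 rose and 4 fell with Cadict over Ctrl at an adjusted p up to 0.05 (40.6% and 47.1% of all tested genes did). Their median log2 fold change was 0.68, against -0.13 over all tested genes. Under library totals it was -0.28, against -1.08 over all tested genes. Atf3, a stress-induced factor that binds JUN proteins, went from 14.8 CPM ± 2.15 in Ctrl and 10.7 ± 0.536 in Cu-Cys to 1651 ± 90.8 in Cadict (SD, n = 3). Its log2 fold change was 6.80 with Cadict (SE 0.09, adjusted p = 3.2e-17) and -0.47 with Cu-Cys (SE 0.10, adjusted p = 0.00140). The small MAF factors Maff and Mafk, which lack an activation domain, changed by 4.60 and 4.24 with Cadict and by 0.57 and 0.45 with Cu-Cys. The 4 that fell with Cadict, named after their values were seen, were Maf (-1.71), Batf2 (-1.18), Nfe2l1 (-0.34) and Atf7 (-0.15). Batf2 and Maf were low in every group. Batf2 had 1.04 CPM ± 0.170 in Ctrl and 0.455 ± 0.353 in Cadict (SD, n = 3), with SE 0.46 and adjusted p = 0.0249 (edgeR). Maf had 5.42 ± 1.13 in Ctrl and 1.65 ± 0.504 in Cadict. With Cu-Cys 5 partners rose and 4 fell, against 22.6% and 22.4% of all tested genes. Of the partners 0 passed 2-fold at an adjusted p of 0.001 (edgeR), against 0.167% of all tested genes higher and 1.47% lower. An unadjusted p under 0.05 was found for 9, while 5381 of all 11949 genes passed 0.05 even after adjustment.

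Other immediate early genes formed a list of their own. Of 38 tested (of 40), 28 rose and 9 fell with Cadict over Ctrl (all tested genes, 40.6% and 47.1%), with a median of 1.49. Under library totals the median was 0.53 against -1.08 over all tested genes. With Cu-Cys 17 rose and 9 fell (all tested genes, 22.6% and 22.4%), with a median of 0.14. Csrnp1, a nuclear factor, had 5.23 CPM ± 0.355 in Ctrl, 7.99 ± 0.628 in Cu-Cys and 195 ± 11.9 in Cadict, and Ptgs2, the inducible cyclooxygenase, had 47.3 ± 2.98, 104 ± 7.86 and 1363 ± 192 (SD, n = 3). Their log2 fold changes were 5.22 and 4.85 with Cadict and 0.61 and 1.14 with Cu-Cys. Klf2, a zinc finger factor, went the other way, from 133 CPM ± 3.36 in Ctrl and 106 ± 7.0 in Cu-Cys to 2.22 ± 0.0448 in Cadict, that is -5.90 on the log2 scale (SE 0.10, adjusted p = 1.2e-16). Nfkbiz, an atypical IκB protein, had the largest change of the list with Cu-Cys among genes with at least 10 CPM in a group, -1.16 (SE 0.06, adjusted p = 7.8e-09), and -0.70 with Cadict.

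The next list held kinases and promoter-bound factors that control immediate early genes. Of 36 tested (of 38), 10 rose and 21 fell with Cadict over Ctrl, beside 40.6% and 47.1% of all tested genes. Their median was -0.28 against the -0.13 of all genes. Under library totals the median was -1.23 against the -1.08 of all genes. With Cu-Cys 6 rose and 6 fell, beside 22.6% and 22.4%, with a median of 0.0052. Crem (a CREB family factor) and Elk4 (a partner of serum response factor) rose by 2.41 and 1.82 with Cadict, Map2k3 (a kinase upstream of p38) by 1.78 with Cadict and by 0.52 with Cu-Cys, and Rps6ka1 (the ERK-dependent kinase RSK1) had -2.59 with Cadict, all as log2 fold changes over Ctrl. A list of 12 genes for regulators of AP-1 and EGR proteins, all tested, had a median of 0.07 with Cadict. Of these 4 rose and 3 fell, no larger a share than the 40.6% and 47.1% of all tested genes. Under library totals the median was -0.88 against the -1.08 of all genes. With DESeq2's size factors the median was 0.19 against the -0.0063 of all genes. Among those that rose with TMM were Cops5 (1.29), a JUN-binding subunit of the COP9 signalosome, and Nab2 (0.96), a corepressor of EGR proteins. Among those that fell with TMM were Det1 (-2.80), part of a ubiquitin ligase for Jun, and Fbxw7 (-0.24). In the deposited TPM the value of Cops5 turned to -0.0096. Nab2 and Fbxw7 were named after their values were seen. With Cu-Cys 3 genes of the list rose and 1 fell, near or under the 22.6% and 22.4% of all tested genes. One of the 3, Cops5, missed an adjusted p of 0.05 with Cu-Cys under library totals (log2 fold change 0.11) and without Ctrl replicate 1 (0.15), Ctrl replicate 2 (0.18), Cu-Cys replicate 1 (0.18) or Cu-Cys replicate 2 (0.15).

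A further list held genes known as AP-1 targets. Of 19 tested (of 25), 15 rose and 4 fell with Cadict over Ctrl, where 40.6% and 47.1% of all tested genes did, with a median log2 fold change of 2.07. Under library totals the median was 1.11, against -1.08 over all tested genes. With Cu-Cys 11 rose and 4 fell, where 22.6% and 22.4% of all tested genes did, with a median of 0.25. Many of them also answer to other factors. Hmox1, the heme oxygenase that NRF2 and BACH1 also control, had 23.2 CPM ± 1.21 in Ctrl, 109 ± 12.2 in Cu-Cys and 18648 ± 854 in Cadict (SD, n = 3). Its log2 fold change was 9.65 with Cadict (SE 0.10, adjusted p = 5.4e-18) and 2.23 with Cu-Cys (SE 0.08, adjusted p = 1.2e-10). The cytokine Il11 and the growth factor Hbegf changed by 6.57 and 4.43 with Cadict and by 0.64 and 0.73 with Cu-Cys. Il11 had 0.896 CPM ± 0.193 in Ctrl and 1.41 ± 0.193 in Cu-Cys (SD, n = 3), and its value with Cu-Cys missed an adjusted p of 0.05 (edgeR) without Ctrl replicate 1 (log2 fold change 0.65), Ctrl replicate 3 (0.50) or Cu-Cys replicate 1 (0.53), and in the deposited TPM (limma, 0.30). The 4 that fell with Cadict, named after their values were seen, were Ccnd1 (-3.24), which encodes cyclin D1, the protease Plau (-2.23), Mmp14 (-0.40) and Itga5 (-0.20). Of the list genes named above for their size of change, exons of Mafk, Csrnp1, Crem, Elk4, Rps6ka1, Cops5 and Det1 overlap a gene on the opposite strand in GENCODE M21. Of their 50-base stretches, 2.70% in Il11, 0.973% in Det1 and 0.862% in Elk4 also occur in other genes.

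**Figure D5:**
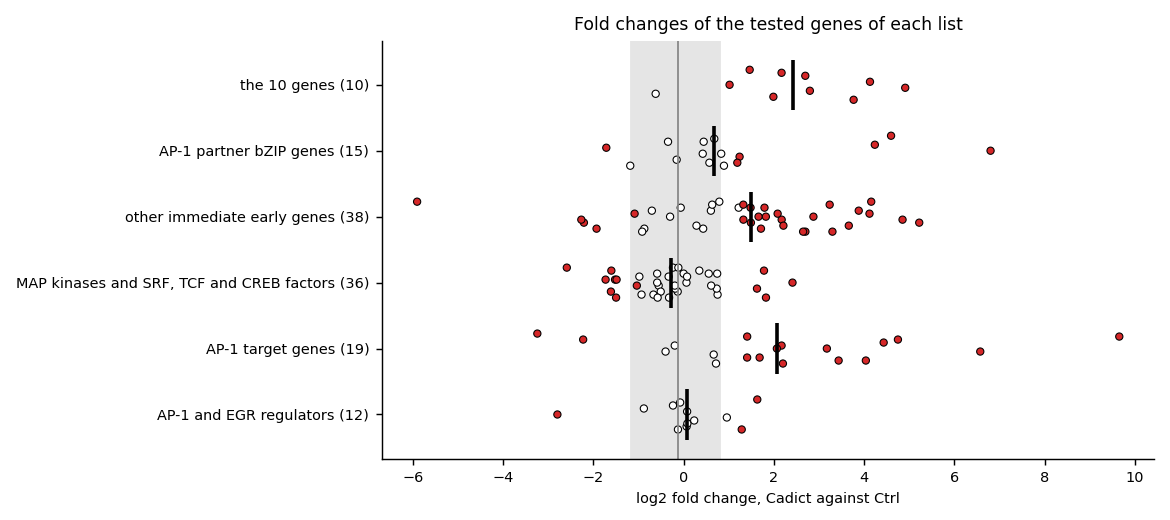
Log2 fold changes in Cadict against Ctrl (horizontal axis) for the 10 genes and for the tested genes of 5 lists, 1 point per gene, with the number of genes in brackets. Filled points were called, black bars are medians, and the grey band and line are the quartiles and median of all tested genes. The medians run from -0.28 for the kinases and promoter-bound factors to 2.43 for the 10 genes. Under library totals that of the partner genes turns to -0.28 and that of the regulators to -0.88, where that of all tested genes is -1.08.

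Genes whose pattern over the 9 libraries came closest to Fos, Jun and Egr1 were picked by the root mean square difference of log2 CPM, centred on Ctrl, among 9115 genes. For Fos they were Cryab (a small heat shock protein, difference 0.23), Sphk1 (sphingosine kinase, 0.24) and Chrnb2 (a nicotinic receptor subunit, 0.25). For Jun they were Dusp16 (a phosphatase of JNK, 0.06), Myh9 (nonmuscle myosin, 0.06) and Usp9x (a deubiquitinase, 0.07). For Egr1 they were Phlda1 (0.13), an immediate early gene of the list above, Cth (cystathionine gamma-lyase, 0.25) and Gm45095 (0.26). Phlda1 had 28.4, 25.0 and 507 CPM in Ctrl, Cu-Cys and Cadict. These are descriptions over libraries that share the same 3 treatments and scaling, and 1054 genes had a Pearson r over 0.98 with Fos, 297 with Jun and 1106 with Egr1. Ranking by Pearson r gave 0 of the same 3 genes for each. Exons of Cryab, Sphk1, Chrnb2, Phlda1 and Gm45095 overlap a gene on the opposite strand in GENCODE M21, and 6.08% of the 50-base stretches of Usp9x, 1.26% of those of Sphk1 and 0.680% of those of Myh9 occur in other genes. None of the 10 AP-1 and immediate early genes shared such a stretch (0% each).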

How the data were processed

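Messenger RNA of MC38 cells was measured in 9 libraries (Ctrl, Cu-Cys and Cadict, 3 each), grouped by their labels. The authors deposited expected counts and TPM per gene and library, and the submitters' processing notes name HISAT2 2.1.0, Bowtie2 2.3.4.3, RSEM 1.3.1 and GRCm39. The paper names other extraction and sequencing than the labels (TRIzol and an Illumina instrument against a column kit and DNA nanoballs). Deposited FPKM, size-factor counts and group averages were not used here. Expected counts were rounded, filtered with filterByExpr, scaled by TMM and fitted in one edgeR 4.0.16 quasi-likelihood model of 3 groups (R 4.3.3), with Benjamini-Hochberg adjustment over 11949 genes. Standard errors were taken as the absolute log2 fold change divided by the square root of F. A call needed an adjusted p of at most 0.001 and a 2-fold change. Alternatives were DESeq2 1.42.0, limma 3.58.1 on log2(TPM + 1), other scalings and filters, a replicate block and leaving out each library. Same-numbered libraries did not deviate together, since their deviations from the group means correlated by -0.197 to 0.167 (8551 genes), and no pairing was assumed. The procedure was also run on simulated data with far fewer changed genes than in Cadict, which does not test the choice of scaling. The 10 genes, the lists, written from general knowledge, and the tests were chosen with earlier results of these data known. From each list the text names the 3 genes with the largest absolute change with Cadict and the 1 with Cu-Cys, at a mean of at least 10 CPM in a group. Some genes that this rule names are not reported here. Genes near Fos, Jun and Egr1 were also required to have counts above 0 in every library. Intervals of counting error were not used.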

Additional observations from a re-analysis of the deposited data

How the results depend on the processing

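Scaling was the main limit. Of the 10 genes, 9 were called in Cadict against Ctrl with TMM, 7 higher and 1 lower with library totals, and 5 higher and 1 lower with limma on the deposited TPM. Of all 11949 tested genes, 2472, 828 and 389 were called higher and 3235, 6148 and 6475 lower, in the same order. In Cadict against Cu-Cys the counts were 9, 6 and 4 higher, with 0 lower in each. Over all tested genes they were 2225, 688 and 359 higher and 2816, 5705 and 5785 lower. Without a limit on the fold change, 6 genes passed in Cu-Cys against Ctrl, where 0 were called. Leaving out each library in turn gave 8 to 9 calls for Cadict over Ctrl, 0 for Cu-Cys over Ctrl and 9 for Cadict over Cu-Cys, and the replicate block gave 9, 0 and 9, changing no call. Fos had at most 23 counts in a Ctrl or Cu-Cys library, which limits its values with Cu-Cys.
With limma on the deposited TPM, the sign turned for Jun (-0.29) and Cops5 (-0.0096) in Cadict against Ctrl, for Fos (-0.051), Fosb (-0.037) and Rps6ka1 (-0.073) in Cu-Cys against Ctrl, and for Jund (-0.98), Nfkbiz (-0.65) and Cops5 (-0.042) in Cadict against Cu-Cys. With library totals it turned for Fos (-0.039), Fosb (-0.0090) and Rps6ka1 (-0.0021) in Cu-Cys against Ctrl and for Jund (-0.75) and Nfkbiz (-0.43) in Cadict against Cu-Cys. In Cu-Cys against Ctrl, leaving out single libraries gave values from -0.16 (without Ctrl replicate 3) to 0.15 for Fos, which was also negative without Cu-Cys replicate 2 (-0.086), from -0.056 (without Ctrl replicate 2) to 0.16 for Fosb, negative also without Cu-Cys replicate 1 (-0.031), from -0.011 (without Cu-Cys replicate 1) to 0.13 for Rps6ka1, and from -0.096 to 0.023 (without Cu-Cys replicate 1) for Det1, positive also without Ctrl replicate 2 (0.019). Beyond the shift of the median, the cause was not tested. The 21 differences in family shares kept their direction in expected counts, where Jun and not Junb was the largest JUN share in Cadict, and with each library left out, with Junb in Cadict against Ctrl between 24.8 and 25.9 points higher and Jund between -16.6 and -15.9 points. Full separation of the libraries depended on the unit. In expected counts Fos overlapped between Cu-Cys (0.513% to 0.671%) and Ctrl (0.585% to 0.917%). Fosl2 overlapped between Cadict (28.8% to 30.7%) and Cu-Cys (27.7% to 30.8%). Fosl1 separated between Cadict (57.6% to 58.0%) and Ctrl (51.8% to 53.2%).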
